A study of Mus musculus with 2 samples.

Results

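Coupling factors are signals from osteoclasts, the cells that resorb bone, to osteoblasts, the cells that form it. The 8 genes described here are coupling factors outside the Wnt, BMP, ephrin and semaphorin families, taken from a list: Sphk1, Cthrc1, Pdgfa, Pdgfb, Slit3, Lif, Ctf1 and Hgf. Their probes were found by the transcript accession that the scanner files give for each spot. All 8 genes were on the array, with 11 probes on 20 spots, of 20654 genes that could be named. All 8 were also among the 13479 genes measured on both arrays, which means that the probe standing for the gene was well above background in most of its spots on each.

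RNA came from osteoclast cultures of female C57BL/6 mice, and 1 Agilent array with the dye Cy3 was hybridised per genotype, wild type or Dnmt3a knockout. In both groups bone marrow cells that did not adhere were grown with M-CSF, the growth factor of the macrophage lineage. The adherent monocyte/macrophage precursors were then given M-CSF with RANKL, the cytokine that turns them into osteoclasts. Dnmt3a is a de novo DNA methyltransferase, an enzyme that sets methyl groups on cytosines, mostly where a guanine follows. The allele, the cells that lost the gene, the number of mice per culture and their age are not given in the sources used here.

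Resorbed bone is refilled because osteoclasts and their precursors send cues to osteoblasts, osteoblast precursors and vessels. Some cues are proteins, such as the platelet-derived growth factors, the axon guidance protein Slit3 and the gp130 cytokines leukemia inhibitory factor and cardiotrophin-1. Another is a lipid, sphingosine 1-phosphate (S1P), which leaves the cell after it has been made. Sphk1 encodes the kinase that makes it, so this gene stands for a secreted cue and is not itself the secreted product.

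Dnmt3a itself read 7042 on its wild type spot and 1822 on its knockout spot, 3.79-fold lower after scaling, so the label of the knockout array was borne out as far as this probe reads the lost transcript. Of 59305 spots for transcripts, the share well above background was 52.7% for wild type and 59.7% for the knockout. The osteoclast label was set against 15 osteoclast markers. All 15 were well above background on both arrays, led by the acid phosphatase Acp5 (signals of 451856 and 442434) and the collagenase Ctsk (413300 and 356772). All differences are knockout minus wild type on the log2 scale, after each array was divided by the 75th percentile of its signals. With 1 array per genotype no test across samples was possible and no p-value is given. Each difference carries a scanner error in log2 units. It combines what the scanner software states as the error of the spot on each array. For a probe with repeated spots it is the error of their mean, with the spots taken as independent. Such an error is smaller than that of a single spot of like signal. The scanner error covers the reading of spots and leaves out the spread between cultures or mice.

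The median of the coupling factors was lower on the knockout array, but the members did not all differ. Slit3 (-0.07, scanner error 0.32) and Hgf (0.15, scanner error 0.22) lay within their errors. Lif, close to background, barely passed its own (-0.34, scanner error 0.33). The members were chosen with earlier results of these data known. The median difference of the 8 was -0.38, or 1.30-fold lower, against 0.01 over all measured genes. It was -0.18 after normexp background correction, which adds an offset of 50 and so draws dim differences toward 0. Below 0 lay 6 of the 8, and 48.1% of all measured genes did so. At least 1.5-fold lower were 2 of the 8, Sphk1 and Pdgfb, against 4.69% of all measured genes, and 0 of the 8 were at least 1.5-fold higher, against 5.82%. None of the 8 was 2-fold lower, which 0.727% of all measured genes were, or 2-fold higher, which 0.824% were. Lower by more than the scanner error were 5 of the 8, against 21.5% of all measured genes. Higher by more than that error was 1, Ctf1, against 24.0%. The error of Ctf1 (0.10) is that of a mean over 10 spots with single errors from 0.28 to 0.35, while most measured genes have 1 spot. The sign of Ctf1 also depended on the processing. In RNA from a whole culture, fewer cells of a type and less RNA per cell cannot be told apart.

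**Figure D1:**
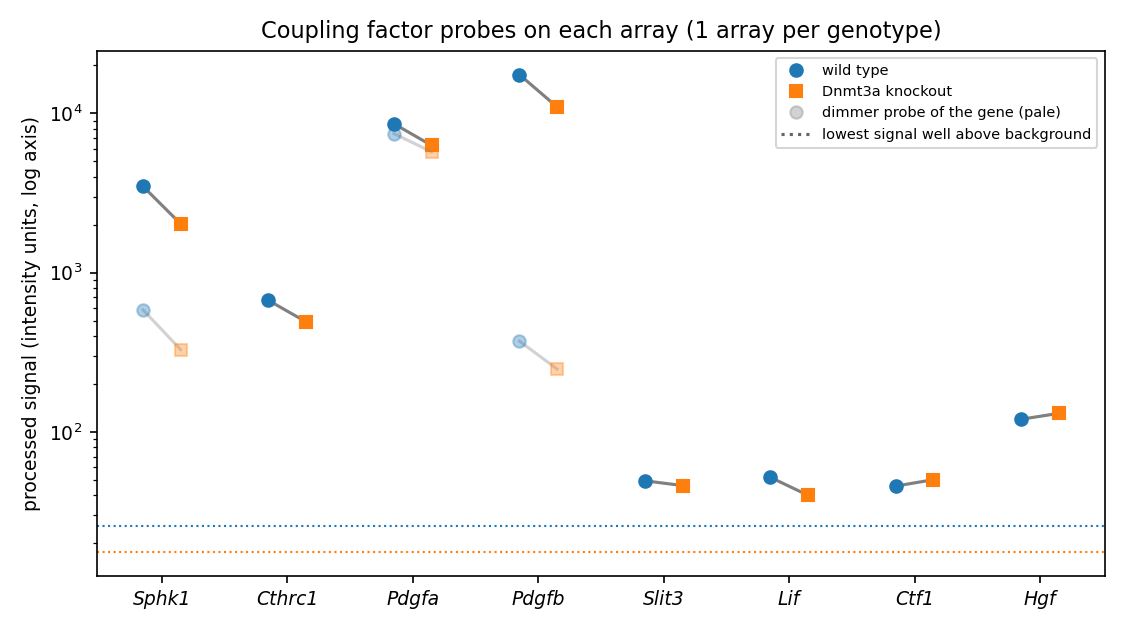
Processed signal (log axis, intensity units) of each coupling factor probe on the wild type array (circles) and the Dnmt3a knockout array (squares), joined by a line. Pale symbols are dimmer probes of the same gene, and dotted lines mark the lowest signal well above background on each array (25.8 and 17.7). Every probe of Sphk1, Pdgfa, Pdgfb and Cthrc1 was lower on the knockout array, and Slit3, Lif and Ctf1 lay below 100 on both.

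Each direction is set against the other genes of the array. When the arrays were instead scaled to 8 spike-in probes, all differences were lower by 0.53, and the median over all measured genes moved from 0.01 to -0.52. On that scale the 8 coupling factors lay between -1.29 and -0.38, so that Ctf1 and Hgf were also below 0, and their median was -0.91. This scaling subtracts the same amount from every gene, so the distance between the members' median and that of all genes is -0.39 under both by construction. After normexp correction that distance was -0.20. The single spike-in probes ranged from 0.30 to 0.73.

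Sphk1 differed most among the members. Its brighter probe, A_51_P501248, read 3480 in wild type and 2022 in the knockout. The other probe, A_55_P2186005, which lies elsewhere on the array, gave 584 and 329. Both were lower on the knockout array by about the same factor, with differences of -0.75 (scanner error 0.20) and -0.80 (scanner error 0.21), or 1.69-fold and 1.74-fold. Of all measured genes 2.08% were as low as the brighter probe, and of the 6925 genes with a signal of 1000 or more 0.809% were.

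The promoter windows of Sphk1 are shown because the enzyme deleted here acts on CpG, a cytosine followed by a guanine. No methylation was measured. RefSeq promoter windows on assembly GRCm38.p6 were matched by symbol for 6 of the 8 members (12 windows, all but Cthrc1 and Pdgfb), and the 250 bases before each transcript start were used. The median over 32851 such windows of all genes was 6 CpG. Sphk1 has 5 listed starts with 4 to 19 CpG. The window of the first start is chr11:116530850-116531099 (plus strand, 4 CpG), and that of the next start is chr11:116531587-116531836 (plus strand, 16 CpG). Capitals mark CpG in these and all later windows, which are written 5′ to 3′ along the gene.
Sphk1 first start: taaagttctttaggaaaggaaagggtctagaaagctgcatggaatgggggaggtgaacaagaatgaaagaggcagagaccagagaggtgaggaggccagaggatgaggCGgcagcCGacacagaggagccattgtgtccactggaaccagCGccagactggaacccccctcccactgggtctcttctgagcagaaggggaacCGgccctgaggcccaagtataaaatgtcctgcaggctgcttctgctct
Sphk1 next start: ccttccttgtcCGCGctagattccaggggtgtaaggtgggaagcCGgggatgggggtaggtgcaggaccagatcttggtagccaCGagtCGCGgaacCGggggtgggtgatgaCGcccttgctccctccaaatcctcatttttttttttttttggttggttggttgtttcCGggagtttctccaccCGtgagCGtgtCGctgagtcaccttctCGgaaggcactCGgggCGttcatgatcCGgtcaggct
Of all windows 62.2% held at least as many CpG as that of the first start, and 25.4% at least as many as that of the next. The letters TGANTCA, the core that AP-1 factors such as Fos and Jun bind, occurred once in the next window and not in the first. They were searched on both strands, and 6.75% of all windows held them. The array does not tell which start was used.

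Genes that handle S1P were read from a list of 12, of which 9 were measured on both arrays. Their median difference was 0.09. At least 1.5-fold lower were 3, against 4.69% of all measured genes, and 1 was at least 1.5-fold higher, against 5.82%. Spns2, an exporter that releases S1P from cells, went from 14320 to 9146 (-0.62, scanner error 0.20). Mfsd2b, a further S1P exporter, gave 161936 and 161315 (0.02, another probe 0.09), within its scanner error of 0.20. Of the phosphatases that remove S1P, Sgpp1 went from 19352 to 29191 (0.62, scanner error 0.20), and Plpp3 went from 487 to 314 (-0.60, scanner error 0.21). Sphk2, the other S1P kinase, gave 16015 and 16683 (0.09), a difference within the scanner error. The exporters therefore differed from each other, as did the phosphatases.

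Of the S1P receptors, S1pr3 gave signals of 396 and 230 (-0.75, scanner error 0.21). S1pr2 gave 3131 and 3994 (0.38, scanner error 0.20), and S1pr1 gave 715 and 846 (0.27, scanner error 0.20). The receptors therefore went both ways. S1pr4 was well above background on the knockout array only (27.3 and 29.9), and S1pr5 on neither.

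Both platelet-derived growth factor chains were lower on the knockout array. Pdgfb, whose homodimer PDGF-BB is released by osteoclast precursors and acts on vessels and mesenchymal cells, gave 17477 in wild type and 10951 in the knockout with its brighter probe, A_55_P2047310. Its dimmer probe, A_55_P1974441, gave 372 and 248. The differences were -0.64 (scanner error 0.20) and -0.55 (scanner error 0.21). Of all measured genes 3.58% were as low as the brighter probe, and of those with a signal of 1000 or more 1.76% were.

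Pdgfa encodes the other classical chain and was lower by a smaller amount. Its probes A_55_P2007470 and A_55_P2125588 gave 8592 and 7451 on the wild type array, and 6283 and 5725 in the knockout. The differences were -0.42 and -0.35, each with a scanner error of 0.20. Both probes of each gene were thus lower by more than that error. Among genes with a signal of 1000 or more, 5.91% were as low as the brighter Pdgfa probe. One of its listed starts has the window chr5:138994945-138995194 (minus strand, 28 CpG), which is shown as a CpG-dense promoter. Of all windows 7.61% held at least as many CpG.
Pdgfa: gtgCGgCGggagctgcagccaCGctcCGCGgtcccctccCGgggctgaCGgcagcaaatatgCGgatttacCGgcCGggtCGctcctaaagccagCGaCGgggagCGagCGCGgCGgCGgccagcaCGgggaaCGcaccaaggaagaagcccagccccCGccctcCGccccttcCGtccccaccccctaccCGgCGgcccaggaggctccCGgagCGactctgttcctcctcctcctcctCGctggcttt
The other Pdgfa window held 19 CpG.

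The receptors of both chains were lower as well. Pdgfra gave 132 and 72.5 (-0.82, scanner error 0.07), and Pdgfrb gave 858 and 461 (-0.87, scanner error 0.20). Both are also markers of stromal cells, whose list is described further on. Over the 6 measured genes of the 8 on the PDGF list the median was 0.05. The 2 receptors were at least 1.5-fold lower, against 4.69% of all measured genes. At least 1.5-fold higher were 0, against 5.82%. The coreceptor Nrp1 (0.43, signals of 528 and 695) and the ligand Pdgfc (0.20, signals of 452 and 509) were at the high end, and the difference of Pdgfc was within its scanner error of 0.21. Some measured single-spot pathway genes named in the text had their spots in array rows 1 to 128. They are Pdgfrb, Nrp1, Pdgfc, S1pr3, Sphk2, Srgap2, Lifr, Osm, Il6ra and Hpn. Among genes whose probe has 1 spot, 2.30% of those in these rows differed 2-fold or more, against 1.23% in the other rows. Pdgfra was spotted 10 times, and its 7 spots in the other rows gave -0.78.

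Cthrc1 is a secreted protein that acts on osteoblast precursors. Its single probe, A_52_P453785, gave 669 in wild type and 491 in the knockout, a difference of -0.42 (scanner error 0.20, 1.34-fold lower). Of 4690 genes with a signal from 100 to 1000, 11.7% were as low. The difference is larger than its error and lies within the bulk of genes of that signal.

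Genes named as receptors or partners of Cthrc1 in planar polarity signalling were read from a list of 8. Of these 6 were measured, with a median of -0.36. Against 4.69% of all measured genes, 2 were at least 1.5-fold lower. Those were the receptor kinase Ror2 (104 and 58.5, -0.80, scanner error 0.25) and the membrane protein Tpbg (67.5 and 39.9, -0.73, scanner error 0.29). Vangl2 (0.16, another probe -0.04) and Fzd5 (-0.06, another probe 0.45) were at the high end, and for each the probes differed in sign. Ror1 was not well above background on either array.

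Slit3, Lif and Ctf1 were close to background on both arrays, and Hgf was dim. The lowest signal well above background was 25.8 in wild type and 17.7 in the knockout. Probes spotted at least 8 times give the spread that a reading has at such levels. The SD of the difference between spots of 1 probe had a median of 0.21 over 33 probes with a signal from 30 to 100. It was 0.09 over 82 probes from 100 to 1000, and 0.05 over 144 probes at 1000 or more. The differences of Sphk1, Pdgfa and Pdgfb were far beyond this spread between spots, which is no spread between samples. That of Slit3 was smaller than it, and that of Lif lay within the range of these SDs (0.08 to 0.53).

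**Figure D2:**
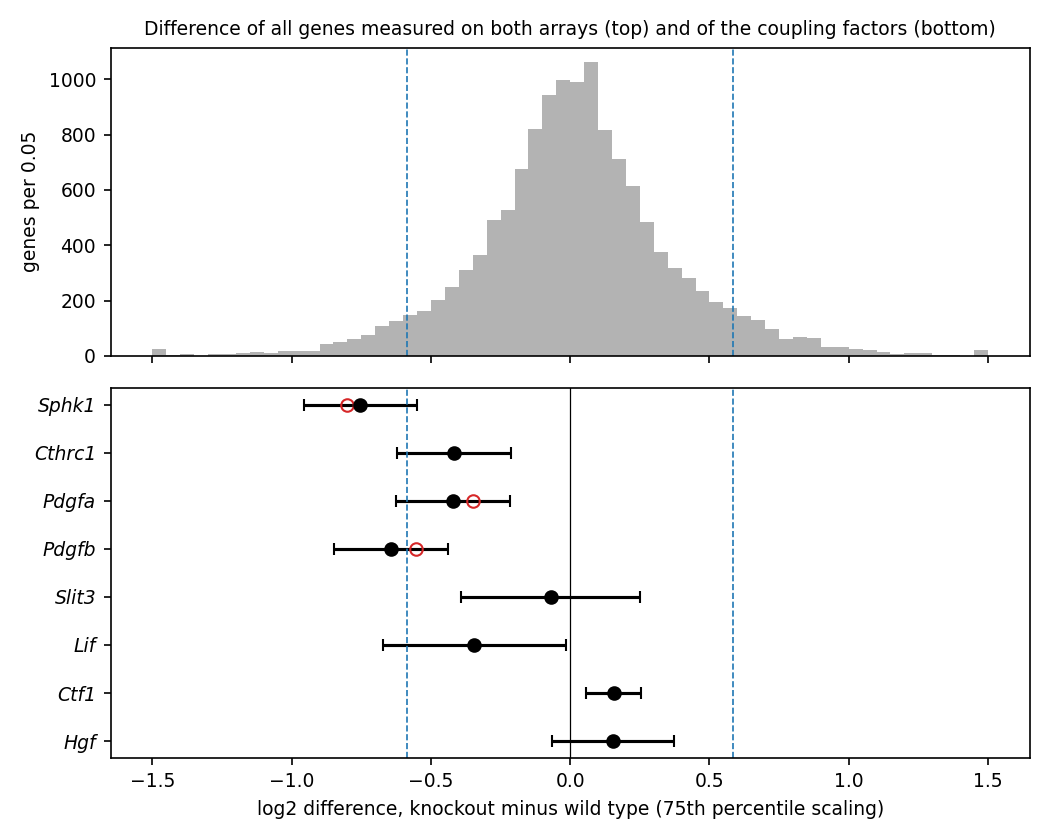
The upper panel counts the 13479 measured genes by log2 difference, knockout minus wild type, in steps of 0.05 (values beyond 1.5 in either direction are in the end bars). The lower panel shows each coupling factor (black, with the scanner error as a bar) and the dimmer probes (open circles), and dashed lines mark 1.5-fold. Sphk1 and Pdgfb lie to the left of the lower 1.5-fold line, and Ctf1 and Hgf lie just above 0 here but below 0 with spike-in scaling.

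Slit3, a guidance protein that osteoclasts secrete and that acts through Robo receptors, gave 49.4 in wild type and 46.1 in the knockout. The difference was -0.07 with a scanner error of 0.32, so that a change of either sign within that error could not be read. Its spot lay in rows 1 to 128. The promoter window of Slit3, chr11:35121206-35121455 (plus strand), is shown because its 35 CpG were the most among the members' windows, and 2.97% of all windows held at least as many.
Slit3: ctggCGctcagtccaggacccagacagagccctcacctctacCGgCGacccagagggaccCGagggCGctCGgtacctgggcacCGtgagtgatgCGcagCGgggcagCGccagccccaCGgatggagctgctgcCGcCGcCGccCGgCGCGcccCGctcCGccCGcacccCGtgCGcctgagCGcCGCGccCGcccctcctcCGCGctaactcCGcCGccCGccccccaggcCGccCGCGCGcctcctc
Pdgfa and Slit3 thus both have a CpG-dense window, and a link between CpG content and the differences was not tested.

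Of the 11 genes on the Slit and Robo list 9 were measured, with a median of -0.18. At least 1.5-fold lower were 2 of them, against 4.69% of all measured genes, and 1 was at least 1.5-fold higher, against 5.82%. Robo1 was dim as well (42.2 and 25.9, -0.67, scanner error 0.37), and Robo2 was not well above background on either array. Srgap3, an adaptor that binds Robo receptors, was lower with every probe (-0.79, others -0.57 and -0.51). Slit1 (348 and 549, 0.69, scanner error 0.21) and Srgap2 (0.43, another probe 0.15) were highest.

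Lif encodes leukemia inhibitory factor, a gp130 cytokine. Its single probe gave 51.9 in wild type and 40.1 in the knockout, a difference of -0.34 with a scanner error of 0.33. The difference barely passed its error, and 19.3% of the 1804 genes with a signal from 30 to 100 were as low. After normexp background correction it was -0.03 and within its error. The offset of 50 in that correction draws a difference at such signals toward 0. The promoter window of Lif, chr11:4257318-4257567 (plus strand, 6 CpG), is shown because it held TGANTCA. Among the 6 members with windows, only Lif and Sphk1 had a window that did, and Cthrc1 and Pdgfb could not be searched.
Lif: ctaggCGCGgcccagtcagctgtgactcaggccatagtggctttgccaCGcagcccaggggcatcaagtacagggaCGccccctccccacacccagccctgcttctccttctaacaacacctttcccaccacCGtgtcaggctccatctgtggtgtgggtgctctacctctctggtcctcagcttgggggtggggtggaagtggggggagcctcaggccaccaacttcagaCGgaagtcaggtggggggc
The letters GGAAAA, the core that NFAT factors bind, were absent from this window on both strands and were present in 20.4% of all windows. Other members held them: the Hgf window shown further on (2), that of Ctf1 (1) and some Sphk1 windows that are not shown (1 each).

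Ctf1 encodes cardiotrophin-1, also a gp130 cytokine, and was the only member whose probe was spotted repeatedly. Its 10 spots gave signals from 39.6 to 59.0 on the wild type array (median 43.9) and from 39.1 to 64.5 on the knockout array (median 50.3). The ranges overlap over most of their width, and the spots are repeats on 1 array and not replicate cultures. The difference was above 0 in 8 spots and below 0 in 2, from -0.21 to 0.59, with a mean of 0.16 (SD 0.26 over spots, n = 10). The scanner error of that mean was 0.10, and its standard error from the spots was 0.08.

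The value differed with the place of the spot. The 3 spots in rows 1 to 128 had a mean difference of 0.35, and the 7 spots in the other rows had a mean of 0.07 (SD 0.21). The standard error of these 7 was 0.08. The Ctf1 difference was 0.05 after normexp correction and -0.003 after quantile normalization. Spike-in scaling put it at -0.38, so the sign of Ctf1 depended on the processing.

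**Figure D3:**
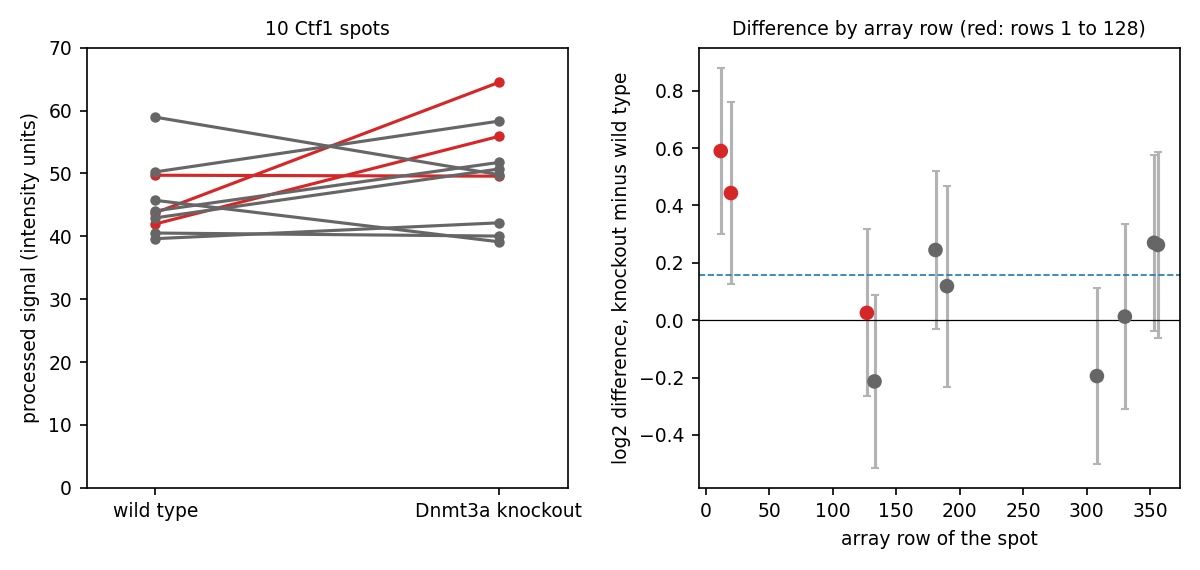
The left panel joins the processed signal of each of the 10 Ctf1 spots on the wild type and knockout arrays (intensity units), and the right panel plots each spot's log2 difference with its scanner error against its array row. Red marks rows 1 to 128, and the dashed line is the mean over spots (0.16). The 2 largest differences, 0.44 and 0.59, belong to the spots in the lowest rows.

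The receptor chains that Lif and Ctf1 share differed by less than the scanner error with their brightest probes. Lifr gave 279 and 271 (-0.01, scanner error 0.21), but its other probes gave 0.28 and 0.75, so its probes disagree. Il6st, the gp130 chain itself, gave 1019 and 993 (-0.01, scanner error 0.20). Of the 18 genes on this list 16 were measured, with a median of -0.01. Of these 2 were at least 1.5-fold lower, against 4.69% of all measured genes, and 0 at least 1.5-fold higher, against 5.82%. The oncostatin M receptor Osmr went from 490 to 219 (-1.13, scanner error 0.21) and was the only measured gene of the pathway lists past 2-fold. Its ligand Osm went from 152 to 97.3 (-0.61, scanner error 0.22). Il6ra (17962 and 26268, 0.58) and Il11 (193 and 272, 0.52) were highest, and Il6 was not well above background on either array.

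Hgf encodes hepatocyte growth factor, the ligand of Met. Its single probe gave 120.2 in wild type and 130.9 in the knockout, a difference of 0.15 with a scanner error of 0.22. The difference was within the error, and 29.6% of genes with a signal from 100 to 1000 were as high. With spike-in scaling it was -0.38. Its spot lay in row 31, so no value without rows 1 to 128 could be had. The window of its first listed start, chr5:16553245-16553494 (plus strand, 4 CpG), is shown as a window below the median of 6 CpG. At least as many CpG were held by 62.2% of all windows.
Hgf: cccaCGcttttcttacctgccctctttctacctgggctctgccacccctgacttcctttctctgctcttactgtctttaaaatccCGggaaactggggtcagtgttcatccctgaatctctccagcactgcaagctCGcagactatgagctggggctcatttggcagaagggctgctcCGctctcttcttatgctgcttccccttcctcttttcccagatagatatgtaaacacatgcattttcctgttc
It holds as many CpG as the first window of Sphk1, whose other windows hold 12 to 19. A link between CpG content and the differences was not tested.

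Met gave 188 and 172 (-0.11, scanner error 0.07). All 12 genes on the HGF list were measured, with a median of 0.14. At least 1.5-fold lower was 1, against 4.69% of all measured genes, and 2 were at least 1.5-fold higher, against 5.82%. Of the proteases that cut the inactive HGF precursor, Hgfac and Hpn were highest. Hgfac went from 44.2 to 72.9 (0.75, scanner error 0.32) and Hpn from 465 to 723 (0.67, scanner error 0.20). Mst1r, the receptor of the related ligand Mst1, went from 32503 to 17072 (-0.90, scanner error 0.06) and was lowest, followed by Mst1 itself (-0.33, another probe -0.31). Met and Mst1r were spotted 10 times each, and their 8 spots in the other rows gave -0.12 and -0.89.

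Over all 6 pathway lists together, 58 of 69 genes were measured, and their median difference was 0.00. At least 1.5-fold lower were 12 of the 58, against 4.69% of all measured genes, and 4 were at least 1.5-fold higher, against 5.82%. The median of the pathway genes thus lay at that of all genes. A larger share of the pathway genes than of all genes was at least 1.5-fold lower. Of the 8 coupling factors 2 were at least 1.5-fold lower, and their median was -0.38 (-0.18 after normexp correction). These values describe 2 arrays, and the lists were compared by counts and medians only.

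**Figure D4:**
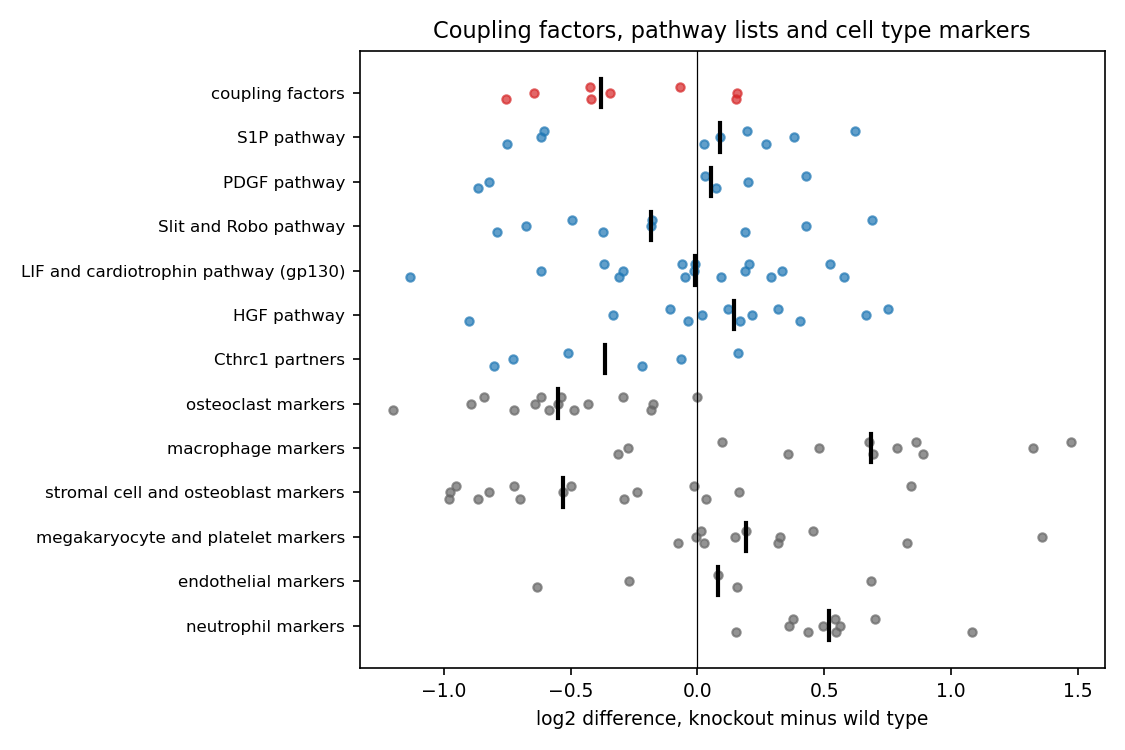
Log2 difference, knockout minus wild type (75th percentile scaling), of each measured gene, one row per list, with a black bar at the median. Coupling factors are red, pathway lists blue and cell type markers grey. The coupling factors (median -0.38) lie between the osteoclast markers (-0.55) and the pathway lists, whose medians run from -0.36 to 0.14, while macrophage (0.69) and neutrophil (0.52) markers lie to the right. With spike-in scaling every point is 0.53 lower.

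Markers of several cell types differed between the arrays beside the coupling factors. Against 48.1% of all measured genes, all 15 osteoclast markers were below 0, with a median of -0.55. Against 4.69% of all measured genes, and 2.51% of those with a signal of 1000 or more, 6 of these markers were at least 1.5-fold lower. Their summed signal, in units of each array's 75th percentile, was 2141 in wild type and 1841 in the knockout. Of 17 stromal and osteoblast markers 15 were measured, 12 of them below 0, with a median of -0.53, and their summed signal was 128 and 83.7. At least 1.5-fold lower were 7 of the 15, against 4.69% of all measured genes, and 1 was at least 1.5-fold higher, against 5.82%. Among these markers Col1a1 (19790 and 11744, -0.72) and Col1a2 (39211 and 23671, -0.70) were bright and lower. Bglap2 (38.2 and 67.2, 0.84, scanner error 0.30) and the bright Lepr (6923 and 7584, 0.16, scanner error 0.14) went the other way. Lum and Runx2 were not well above background on either array. Sphk1, Pdgfa, Pdgfb and Cthrc1 were lower together with both lists, and the part of either cell type in these differences was not tested.

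Macrophage markers went the other way, with a median of 0.69 over 12 measured genes, 10 of them above 0, and a summed signal of 854 and 1119. Of all measured genes 51.9% were above 0. All 10 measured neutrophil markers were above 0, with a median of 0.52 (summed signal 260 and 348). Megakaryocytes and platelets also hold platelet-derived growth factor. Of their 11 markers 9 were above 0, with a median of 0.19 and a summed signal of 48.9 and 73.7, and their part in the values of Pdgfa and Pdgfb was not tested. Of 9 endothelial markers 5 were measured, with a median of 0.08 (summed signal 28.3 and 30.5), and Tek and Emcn were not well above background on either array.

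**Figure D5:**
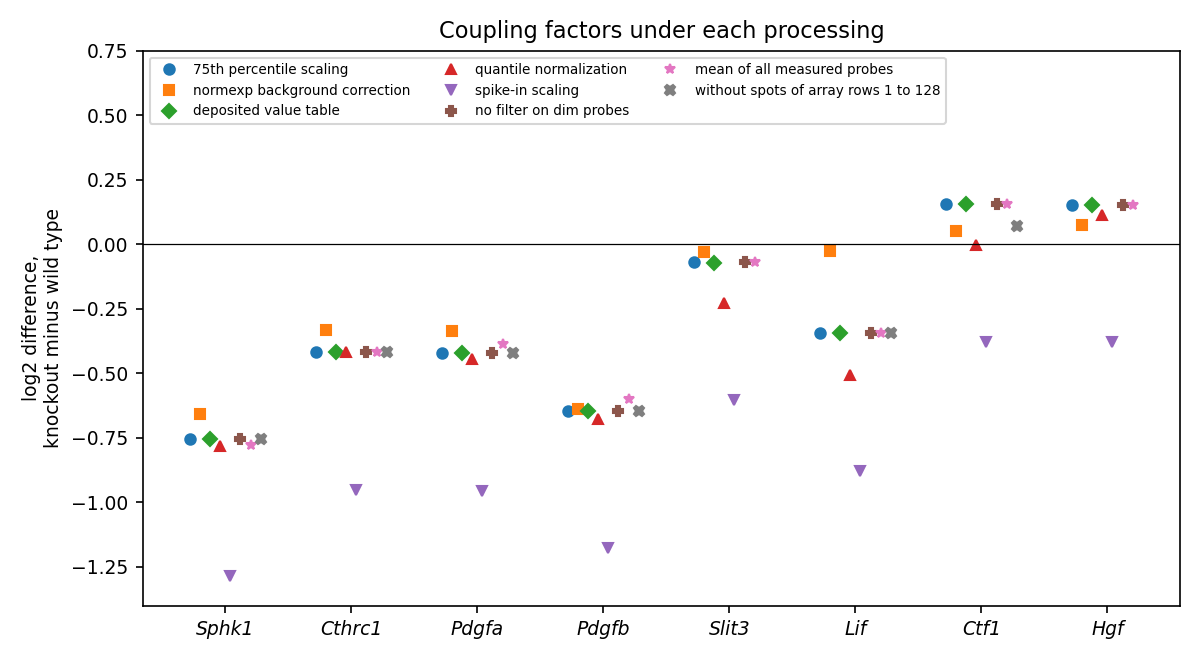
Log2 difference, knockout minus wild type, of each coupling factor under each processing of the same 2 arrays. Sphk1, Cthrc1, Pdgfa, Pdgfb, Slit3 and Lif were below 0 in every setting with a value, Hgf was below 0 with spike-in scaling only, and Ctf1 was below 0 under both spike-in scaling and quantile normalization. Slit3 and Hgf have no value without array rows 1 to 128.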

How the data were processed

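Expression was read from 1 scanner file per genotype. The authors deposited the intensity of each spot, background-subtracted and spatially detrended within the array with no scaling between arrays, per the file headers (Agilent Feature Extraction 10.10.1.1, probes placed on mm9). Version 9.1 stands in the submitters' processing notes, and the difference is unresolved. The deposited value table holds the same intensity times a factor per array and served as an alternative.

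Signals were divided by each array's 75th percentile over 59305 spots that are not controls. Spots marked uneven or as outliers (157 and 172) were left out, none was saturated, and repeated spots were averaged as log2 values. Probes were named through accessions in a RefSeq table (GRCm38.p6, names only), which named 27224 of 55649 probes. A gene was read from its probe of highest mean level, and every probe of a member is given. The genes named besides the members are the 2 highest and 2 lowest measured genes of each pathway list, a fixed set of receptors, and Dnmt3a. Sphk2, Mfsd2b, Plpp3, S1pr4, S1pr5, Il6, Ror1 and the cell type markers given by name were picked after their values were seen. No pattern likeness was computed, since 2 arrays give 1 difference per gene. Members and lists were chosen with earlier results of these data known.

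Alternatives were normexp (limma 3.58.1, R 4.3.3, offset 50; on the median spot signal, in place of the planned mean signal), the value table, quantile normalization, spike-in scaling, no filter on dim probes, the mean of all measured probes and, added after results were known, no spots of rows 1 to 128. Values were computed with Python 3.11.15. The steps were tested on simulated data. With 1 array per genotype the number of arrays limits the precision of every value.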

Additional observations from a re-analysis of the deposited data

How the results depend on the processing

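The 8 differences moved by less than their scanner errors with the deposited value table, no filter on dim probes and the mean of all measured probes. The counts of members stayed the same (medians of -0.38, -0.38 and -0.37). Removing the filter could not change the differences, because all 8 members were measured. The value table differs by a factor per array, which the scaling removes. The probe mean could move only the 3 members with several probes, Sphk1, Pdgfa and Pdgfb. Without array rows 1 to 128 a value remained for 6 members, all but Slit3 and Hgf. Their median was -0.42, and 5 of them lay below 0. Those 5, Sphk1, Cthrc1, Pdgfa, Pdgfb and Lif, have no spot in these rows, so their values could not change. Ctf1 alone could move, and it went from 0.16 to 0.07, with a standard error of 0.08 over its 7 remaining spots. Normexp correction moved Ctf1 to 0.051, and quantile normalization turned it to -0.0034. With spike-in scaling the differences were -1.29 for Sphk1, -0.95 for Cthrc1, -0.95 for Pdgfa, -1.18 for Pdgfb, -0.60 for Slit3, -0.88 for Lif, -0.38 for Ctf1 (reversed) and -0.38 for Hgf. Their median was then -0.91, and 6 members were at least 1.5-fold lower, against 40.4% of all measured genes, because that scaling lowers all differences alike by 0.53. Normexp adds an offset of 50, near the signals of Slit3, Lif and Ctf1, which draws the differences of dim probes toward 0 by construction. Whether the offset accounts for the whole Ctf1 shift under normexp was not tested. The cause of its shift under quantile normalization was not tested either. Signals near background limit Slit3, Lif and Ctf1. No paired analysis was possible because each genotype has 1 array.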
